A study of Mus musculus with 6 samples.

Results

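The genes described here encode 43 cytosolic translation initiation and elongation factors of the mouse, among 55401 genes in the deposited table. They were chosen by name and not by a cut on their measured values, though earlier results of these data were known. All 43 passed the filter on low counts. BV2 is an immortalised mouse microglial cell line, and poly(A)-selected RNA was sequenced from 3 libraries of BV2 cells treated with lipopolysaccharide (LPS) and 3 libraries of BV2 cells given Vehicle. LPS, from the envelope of Gram-negative bacteria, is sensed by macrophages and microglia through Tlr4. The labels gave neither dose nor duration, and did not say whether libraries stem from separate cultures. The p-values therefore reflect the spread between these libraries alone, which may be technical. An immortalised line stands for microglia only in part. Among 13 microglial and macrophage genes listed, Tmem119, P2ry12 and Cx3cr1 were at 2.64 CPM or less in every library. Aif1 was at 4.58 CPM or less. The others, Csf1r, Itgam, Ptprc, Spi1, Adgre1, Tyrobp, Fcer1g, Lyz2 and Cd68, were at 42.9 CPM or more in every library.

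A ribosome starts on a messenger RNA in steps. The eIF2 complex carries the initiator tRNA and is recharged by eIF2B, eIF3 holds the small subunit, and the eIF4 factors bind the cap and unwind the leader. The 4E-BP proteins, encoded by Eif4ebp1 and Eif4ebp2, sequester the cap-binding protein eIF4E until the kinase complex mTORC1 phosphorylates them. The elongation factors eEF1 and eEF2 then deliver aminoacyl-tRNA and move the ribosome along. In macrophages, LPS is known to act on this machinery largely through phosphorylation, which RNA levels do not show. The study asked which regulators take part in microglial activation, and the comparison here is LPS against Vehicle.

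Libraries totalled between 45969690 and 59023474 estimated counts, with 18984 to 20615 genes above 0. Levels are CPM, counts scaled to library size after TMM, a correction for differences in RNA composition. Nos2, the inducible nitric oxide synthase and a known LPS target, averaged 513 ± 56.6 CPM in LPS libraries and 2.51 ± 0.32 CPM in Vehicle libraries (SD, n = 3 each). The LPS libraries differed among themselves more than the Vehicle libraries did, with correlations of 0.951 to 0.962 in LPS libraries and 0.967 to 0.970 in Vehicle libraries. For LPS 3, over 5864 well expressed genes, the deviation from the other LPS libraries had a Spearman correlation of 0.38 with transcript length, against -0.24 for LPS 1 and -0.30 for LPS 2. In Vehicle libraries the same value lay between -0.05 and 0.12. These correlations are across genes, and each library is set against the other 2 of its group, so the values are not independent. Counts for the factors and the pathway lists are given with and without LPS 3, and the part of length in any fold change was not tested.

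The translation factors changed little as a whole, and the changes that passed the test ran in both directions. Of the 43 genes, 8 rose and 3 fell with LPS (edgeR quasi-likelihood, p adjusted by Benjamini-Hochberg across 16371 tested genes, threshold 0.05), and 32 did not pass. The genes that rose were Eif4ebp1, Eif2b2, Eif3d, Eif3h, Eef2, Eif1, Eef1a1 and Eif3c, and those that fell were Eif4ebp2, Eif4g2 and Eif2s1. The share called was 25.6%, against 23.6% of all tested genes, which is near the background. For rises it was 18.6% against a background of 12.7%, and for falls 6.98% against 10.9%. Among the 5864 genes expressed at or above the mean of the least expressed factor, 37.0 CPM, 34.3% were called, 18.3% as higher and 16% as lower, so the share of rises among the factors is close to that of genes at their level. The median log2 fold change of the 43 factors was 0.09, against -0.02 for all tested genes, and the largest size was that of Eif4ebp1, a 1.73-fold rise.

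The groups did not overlap in 20 of the 43 genes (46.5%, against 40.8% of all tested genes). LPS was higher in 12 of the 43 (27.9%, against 20.8% of all tested genes) and lower in 8 (18.6%, against 20.0%). Without LPS 3, 13 factors rose and 6 fell. Calls over all tested genes also went up, to 2450 higher and 2085 lower from 2082 and 1782 with all libraries. With any other single library left out they went down, to between 1291 and 1549 higher and between 1053 and 1298 lower. Without LPS 1, 5 factors rose and 3 fell, and without LPS 2, 6 rose and 2 fell. Without Vehicle 1 or Vehicle 3, 5 rose and 1 fell, and without Vehicle 2, 4 rose and 1 fell. Scaled by total counts alone, 5 rose and 7 fell, and over all tested genes the share of calls that were rises was 42.2% in place of 53.9%. The calls of Eif4ebp1, Eif4ebp2, Eif2b2, Eif3d and Eif3h held under all 16 alternatives run, and those of the other 6 called factors did not.

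**Figure D1:**
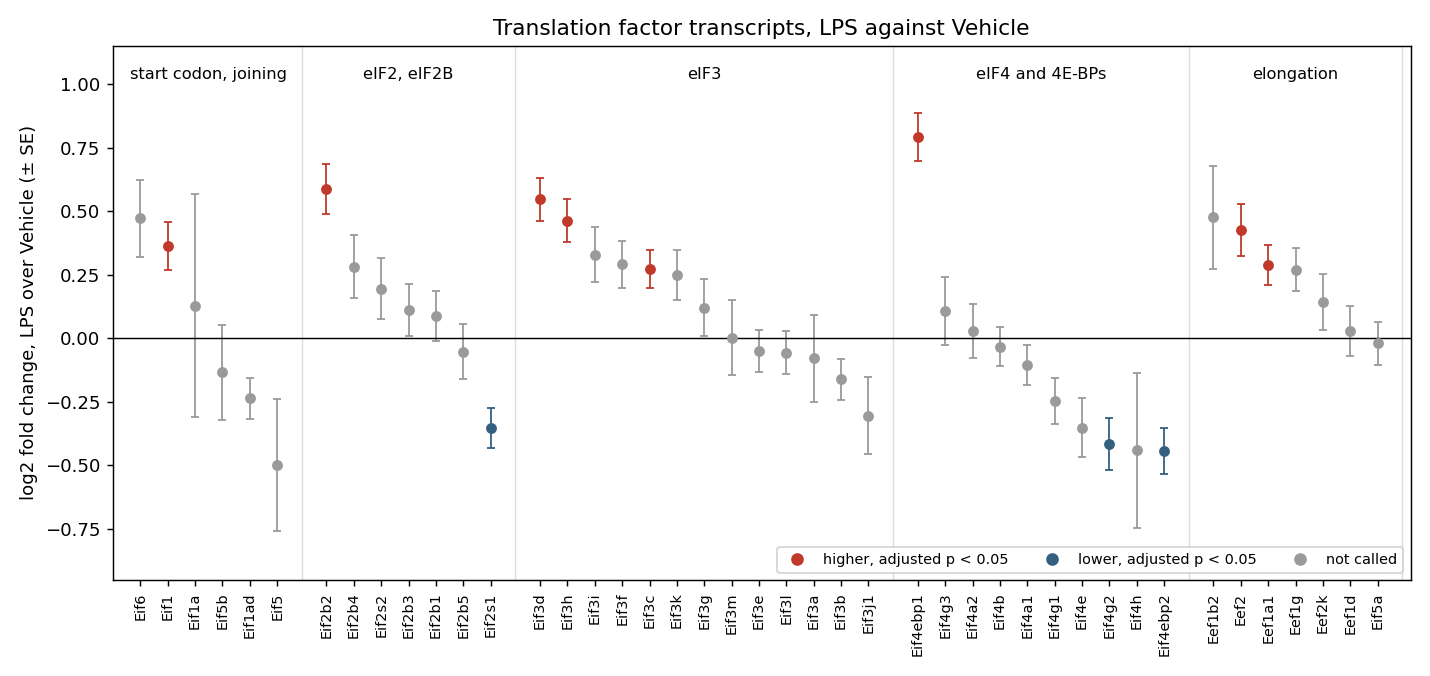
Log2 fold change of LPS over Vehicle for each of the 43 factors, ordered within its group, with standard errors from edgeR (3 libraries per group). Red and blue points passed the test and grey points did not. Eif4ebp1 stands highest at 0.79, Eif4ebp2 and Eif4g2 lie below 0 in the same group, and 32 points are grey.

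The start sites of the called factors are shown because messenger RNAs of the elongation factors are textbook cases of the 5′ terminal oligopyrimidine (TOP) class, whose translation mTORC1 controls through a run of pyrimidines at the 5′ end. RefSeq promoter windows (GRCm38.p6) were matched for 33 of the 43 factors, 8 of them called. Each sequence runs from 20 bases before the annotated start to 30 bases after it, 5′ to 3′ on the gene's strand. Capitals mark the longest run of C and T that begins with C and has at least 6 bases.
Eef1a1, higher with LPS (chr9:78481695-78481744, minus strand): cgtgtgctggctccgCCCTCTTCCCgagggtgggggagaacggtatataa
Eef2, higher with LPS (chr10:81176611-81176660, plus strand): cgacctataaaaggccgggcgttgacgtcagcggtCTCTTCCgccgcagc
Eif2b2, higher with LPS (chr12:85219461-85219510, plus strand): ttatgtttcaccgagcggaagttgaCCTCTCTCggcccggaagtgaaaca
Eif3d, higher with LPS (chr15:77970795-77970844, minus strand): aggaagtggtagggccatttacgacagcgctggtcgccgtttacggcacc
Eif3c, higher with LPS (chr7:126566337-126566386, minus strand): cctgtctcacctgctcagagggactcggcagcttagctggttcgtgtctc
Eif1, higher with LPS (chr11:100319929-100319978, plus strand): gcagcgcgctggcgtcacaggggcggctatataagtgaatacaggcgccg
Eif2s1, lower with LPS (chr12:78862052-78862101, plus strand): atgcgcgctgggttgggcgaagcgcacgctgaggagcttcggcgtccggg
Eif4ebp2, lower with LPS (chr10:61452640-61452689, minus strand): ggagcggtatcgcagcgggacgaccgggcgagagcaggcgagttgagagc
Eef1a1, Eef2 and Eif2b2 hold such a run, and it is not in the other windows printed. The run could lie anywhere in the window. It begins before the annotated start in Eef1a1 and after it in Eef2 and Eif2b2. In the windows of Eef1a1 and Eif1 the letters tatataa lie after the annotated start, and in Eef1a1 they follow the run. Whether a run lies at the 5′ end of a messenger RNA was not tested. Neither a run nor its absence therefore places a gene in the TOP class or outside it. Of 6 matched factors that rose, 3 hold one, of 2 that fell, 0 do, and of 25 that were not called, 10 do. The run is common, with 31.0% of the 42 factor windows and 34.3% of all 32851 windows holding it, and a match is a description of these letters only.

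Among the factors that read the start codon and join the subunits, Eif1 rose and 5 did not pass the test. The share of all tested genes that rose was 12.7%. Eif1 (ENSMUSG00000035530) encodes the factor that keeps the ribosome from starting at the wrong codon. It had 240, 245 and 206 CPM in LPS 1, 2 and 3, against 173, 189 and 176 CPM in Vehicle 1, 2 and 3. Every LPS library was above every Vehicle library, with LPS 3 nearest to the Vehicle libraries. The log2 fold change was 0.36 ± 0.10 (SE, edgeR adjusted p = 0.0264), and the call was lost with total counts only and without any library but LPS 3, with adjusted p up to 0.101.

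The other factors of this group varied between libraries of the same treatment. Eif6, whose product keeps the large subunit from joining too early, had 334, 377 and 246 CPM in LPS libraries, against 247, 229 and 213 CPM in Vehicle libraries. Eif5, which encodes the factor that triggers GTP hydrolysis by eIF2, had 212, 182 and 332 CPM in LPS libraries, against 352, 266 and 408 CPM in Vehicle libraries. In both genes LPS 3 lay inside the Vehicle range while LPS 1 and LPS 2 lay outside it. Neither passed edgeR's test with all libraries (adjusted p = 0.0554 and 0.224), and Eif6 passed by DESeq2 (adjusted p = 0.0286). Without LPS 3, Eif6 rose with 0.62 ± 0.09 on the log2 scale (edgeR adjusted p = 0.00165) and Eif5 fell with -0.80 ± 0.20 (edgeR adjusted p = 0.0356).

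Eif1a, a scanning factor, had 152, 140 and 141 CPM in LPS libraries, against 54.2, 184 and 159 CPM in Vehicle libraries. Vehicle 1 alone was low, 3.40-fold under Vehicle 2, the widest spread within a group among the 43 genes. The log2 fold change was 0.13 ± 0.44 with all libraries and -0.25 without Vehicle 1, and neither value passed (edgeR adjusted p = 0.869 and 0.185). Eif5b and Eif1ad had log2 fold changes of -0.13 ± 0.19 and -0.24 ± 0.08. Eif1ad overlaps Banf1 and Eif5b overlaps Rev1 on the opposite strand, and the library kit was not stated to keep the strand. Reads from any bases that these pairs share could therefore not be told apart. Overlap was taken from whole gene spans, and shared exon bases were not measured. The same holds for Eef1b2 with Ndufs1, Eif2b4 with Snx17, Eif3j1 with Spg11 and Eif4a2 with Rfc4.

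Among the 7 genes of eIF2 and its exchange factor eIF2B, Eif2s1 fell and Eif2b2 rose. The gene for eIF2 gamma, outside the 43 and given further on, fell as well. The shares of all tested genes were 12.7% for rises and 10.9% for falls. Eif2s1 (ENSMUSG00000021116) encodes eIF2 alpha, the subunit that stress kinases phosphorylate to block eIF2B. It had 382, 349 and 346 CPM in LPS libraries, against 451, 455 and 469 CPM in Vehicle libraries. All LPS libraries were lower, and the libraries of each group lay close together. Eif2s1 fell with a log2 fold change of -0.35 ± 0.08 (SE, edgeR adjusted p = 0.0139), and the call was lost without Vehicle 1, Vehicle 2 or Vehicle 3, with adjusted p of 0.0509 to 0.0582.

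Eif2b2 (ENSMUSG00000004788), the beta subunit of eIF2B and part of its regulatory core, had 128, 135 and 121 CPM in LPS libraries, against 77.1, 92.2 and 86.4 CPM in Vehicle libraries. The groups did not overlap. Eif2b2 rose, with a log2 fold change of 0.59 ± 0.10 (SE, edgeR adjusted p = 0.00357). The genes for the other 4 eIF2B subunits and for eIF2 beta (Eif2s2) did not pass the test, with log2 fold changes between -0.05 and 0.28 and edgeR adjusted p of at least 0.143. Eif2s2 had 395, 490 and 538 CPM in LPS libraries, against 420, 434 and 388 CPM in Vehicle libraries, so LPS 1 lay inside the Vehicle range. The ratio of Eif2s2 to Eif2s1 counts was 1.04, 1.40 and 1.55 in LPS libraries and 0.93, 0.96 and 0.83 in Vehicle libraries.

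Among eIF2 kinases and phosphatase adaptors, an adaptor gene rose and the kinase genes did not pass. Ppp1r15a, known as GADD34, directs a phosphatase to eIF2 alpha. It had 167, 154 and 160 CPM in LPS libraries, against 39.4, 38.5 and 44.3 CPM in Vehicle libraries, a log2 fold change of 1.98 ± 0.10 (SE, edgeR adjusted p = 7.76e-06). Dnajc3, known as an inhibitor of eIF2 kinases, fell with -0.49 ± 0.09. Of the 9 genes in the list, 1 rose and 1 fell, where 12.7% of all tested genes rose and 10.9% fell. Without LPS 3, 1 of the 9 rose and 2 fell. The kinase genes Eif2ak1, Eif2ak2, Eif2ak3 and Eif2ak4 had log2 fold changes of 0.05 ± 0.11, -0.16 ± 0.18, -0.12 ± 0.11 and -0.08 ± 0.09. Without LPS 3, Eif2ak2, the kinase PKR, had -0.41 and passed as lower (edgeR adjusted p = 0.0165).

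Among 14 tested initiation factors outside the 43 genes, 1 rose and 2 fell, where 12.7% of all tested genes rose and 10.9% fell. Without LPS 3, 1 of the 14 rose and 4 fell. Eif2s3x, the gene for eIF2 gamma, had 464, 447 and 487 CPM in LPS libraries, against 634, 614 and 640 CPM in Vehicle libraries. All LPS libraries were lower, as they were for Eif2s1, and the log2 fold change was -0.43 ± 0.08 (SE, edgeR adjusted p = 0.00470). Denr, which helps to recycle and reinitiate ribosomes, rose with 0.59 ± 0.08. Ddx3x, an RNA helicase, fell with -0.83 ± 0.19 and lost its call without LPS 2 or Vehicle 2 (edgeR adjusted p up to 0.0789).

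Of the 13 eIF3 subunit genes 3 rose and 0 fell, and 8 had a log2 fold change above 0, where 12.7% of all tested genes and 18.3% of well expressed ones rose. Eif3d (ENSMUSG00000016554), a subunit that can bind the cap, had 592, 645 and 558 CPM in LPS libraries, against 417, 395 and 417 CPM in Vehicle libraries. Eif3h (ENSMUSG00000022312), a subunit of the structural core, had 574, 611 and 529 CPM in LPS libraries, against 424, 397 and 423 CPM in Vehicle libraries. In both genes the Vehicle libraries lay close together, well under every LPS library. The log2 fold changes were 0.55 ± 0.09 for Eif3d (edgeR adjusted p = 0.00254) and 0.46 ± 0.09 for Eif3h (edgeR adjusted p = 0.00575). Eif3c (ENSMUSG00000030738), a core subunit that contacts eIF1, had 844, 812 and 859 CPM in LPS libraries, against 704, 674 and 705 CPM in Vehicle libraries. Its groups did not overlap either. Its log2 fold change of 0.27 ± 0.07 (edgeR adjusted p = 0.0315) lost the call with upper quartile scaling, with total counts only, under the replicate block, and without LPS 1 or any single Vehicle library, with adjusted p up to 0.136.

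The other 10 eIF3 genes had log2 fold changes between -0.30 and 0.33. Eif3f, Eif3i and Eif3k, with 0.29 ± 0.09, 0.33 ± 0.11 and 0.25 ± 0.10, had LPS libraries above all Vehicle libraries without passing the test. Without LPS 3, Eif3f and Eif3i passed (edgeR adjusted p = 0.0130 and 0.00658), and so did Eif3j1, lower with -0.51 ± 0.09 (edgeR adjusted p = 0.00401). With all libraries Eif3j1, the loosely bound subunit, had 163, 163 and 236 CPM in LPS libraries, against 214, 249 and 231 CPM in Vehicle libraries, and LPS 3 lay among the Vehicle values. Eif3j1 has a close copy, Eif3j2, between which reads can be split, so its value is uncertain. The median over the 13 genes was 0.12, and 0.03 with total counts only. Per kilobase of the longest annotated transcript, eIF3 levels ran from 34.6 (Eif3j1) to 441 (Eif3h) CPM per kb in LPS libraries, and from 42.7 (Eif3j1) to 320 (Eif3h) CPM per kb in Vehicle libraries.

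**Figure D2:**
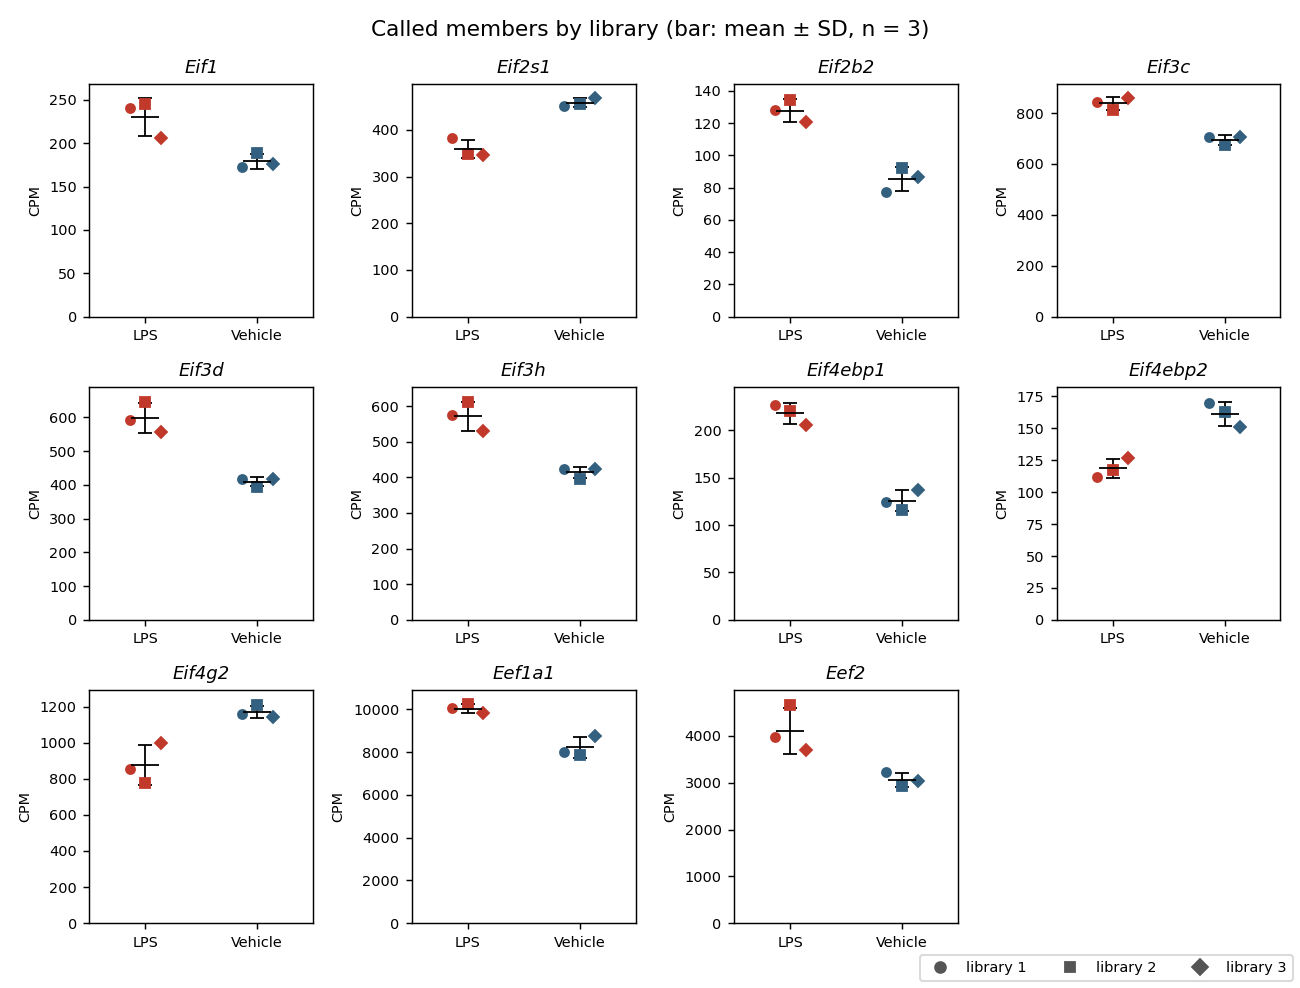
CPM of the 11 factors that passed the test, in each LPS library (red, left) and each Vehicle library (blue, right), with the mean and SD of 3 libraries. Axes start at 0 and differ between panels. In all 11 panels the 3 LPS libraries lie on one side of the 3 Vehicle libraries.

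In the eIF4 group 1 of 10 genes rose and 2 fell, where 12.7% of all tested genes rose and 10.9% fell. The genes for both 4E-BP repressors changed, in opposite directions. Eif4ebp1 (ENSMUSG00000031490) had 227, 221 and 206 CPM in LPS libraries, against 124, 116 and 138 CPM in Vehicle libraries. Eif4ebp2 (ENSMUSG00000020091) had 112, 117 and 127 CPM in LPS libraries, against 170, 163 and 151 CPM in Vehicle libraries. Neither gene's groups overlapped, and LPS 3 and Vehicle 3 were the libraries nearest to the opposite group in both genes. Eif4ebp1 rose with a log2 fold change of 0.79 ± 0.09 (SE, edgeR adjusted p = 0.000680), and Eif4ebp2 fell with -0.44 ± 0.09 (SE, edgeR adjusted p = 0.00855). These calls held under all 16 alternatives.

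The ratio of Eif4ebp1 to Eif4ebp2 counts was 2.02, 1.88 and 1.63 in LPS libraries and 0.73, 0.71 and 0.91 in Vehicle libraries. It is a ratio of counts and not of molecules, since the annotated transcripts differ in length. Eif4e, the gene for the cap-binding target of these repressors, had 184, 164 and 136 CPM in LPS libraries, against 195, 211 and 210 CPM in Vehicle libraries. All LPS libraries were lower, LPS 3 the most. Eif4e did not pass, with a log2 fold change of -0.35 ± 0.12 (SE, edgeR adjusted p = 0.0614, and 0.0233 to 0.175 over the alternatives). The summed counts of Eif4ebp1 and Eif4ebp2 over those of Eif4e were 1.84, 2.07 and 2.45 in LPS libraries and 1.51, 1.32 and 1.37 in Vehicle libraries.

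**Figure D3:**
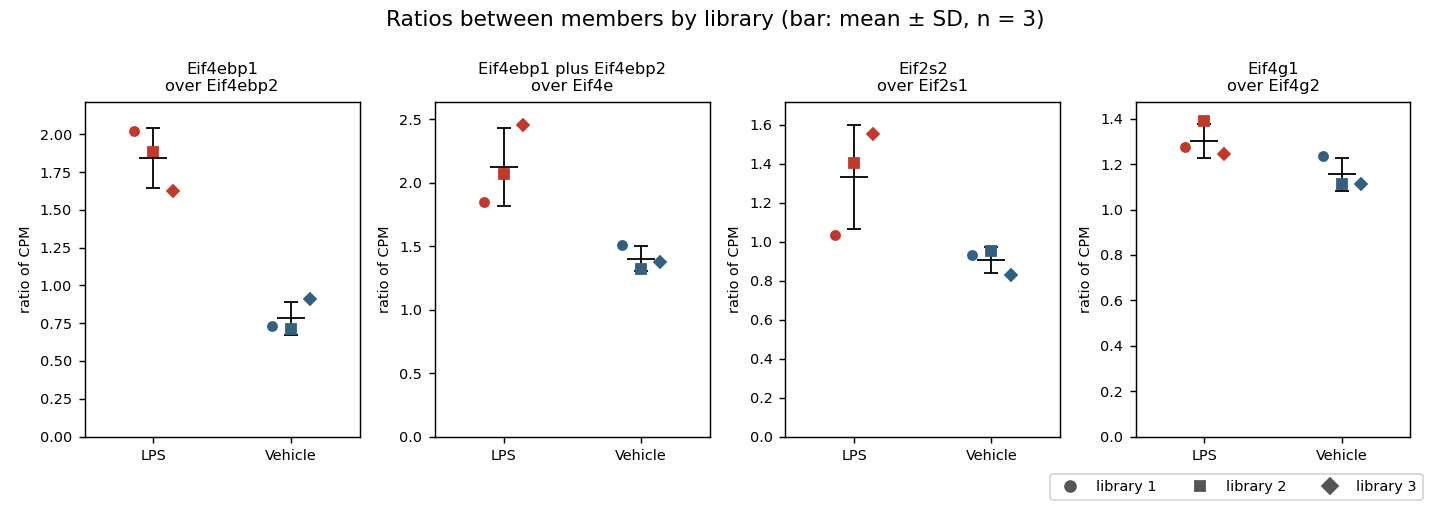
Ratios of CPM between pairs of factors in each LPS library (left) and each Vehicle library (right), with mean and SD of 3 libraries. Eif4ebp1 over Eif4ebp2 lies at or above 1.63 in LPS libraries and at or under 0.91 in Vehicle libraries. The other 3 ratios are also higher in every LPS library, Eif4g1 over Eif4g2 only narrowly (1.247 in LPS 3, 1.238 in Vehicle 1). Of the ratios computed but not drawn, Eif4ebp1 over Eif4e was higher in every LPS library, and Eif4a1 over Eif4a2 overlapped between groups.

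Eif4g2 (ENSMUSG00000005610) encodes a relative of eIF4G that lacks the site for eIF4E. It had 856, 780 and 999 CPM in LPS libraries, against 1161, 1209 and 1144 CPM in Vehicle libraries. The groups did not overlap, and LPS 3 was the LPS library nearest to the Vehicle values. Eif4g2 fell with a log2 fold change of -0.42 ± 0.10 (SE, edgeR adjusted p = 0.0207). The call was lost without any library but LPS 3, with adjusted p up to 0.0852, and without LPS 3 the value was -0.52 (edgeR adjusted p = 0.00149).

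The other 6 eIF4 genes did not pass. Eif4g1, the main scaffold, had 1091, 1083 and 1245 CPM in LPS libraries, against 1437, 1347 and 1274 CPM in Vehicle libraries, without overlap. Its log2 fold change was -0.25 ± 0.09 (edgeR adjusted p = 0.0867), and -0.32 ± 0.07 without LPS 3 (edgeR adjusted p = 0.0123). Eif4h, a helper of the helicase eIF4A, had 517, 537 and 235 CPM in LPS libraries, against 604, 567 and 579 CPM in Vehicle libraries. LPS 3 alone was low, and the log2 fold change of -0.44 ± 0.30 became -0.15 without it. The helicase genes Eif4a1 and Eif4a2 and the helper Eif4b had -0.10, 0.03 and -0.03, and the scaffold Eif4g3 had 0.11, on the log2 scale. Summed over the 10 genes, eIF4 transcripts held 5014 ± 27.3 CPM in LPS libraries and 5752 ± 88.7 CPM in Vehicle libraries (SD, n = 3 each). The sum mixes genes of unequal length and is led by Eif4g1, Eif4g2, Eif4a1 and Eif4b.

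Of 15 regulators that act at the cap or the poly(A) tail, 4 rose and 0 fell, where 12.7% of all tested genes rose and 10.9% fell. Without LPS 3, 4 of the 15 rose and 3 fell. Leaving out single libraries gave 1 to 4 rises and 0 to 3 falls. Mknk1, a kinase of eIF4E, had 82.2, 99.9 and 97.6 CPM in LPS libraries, against 57.7, 64.0 and 50.7 CPM in Vehicle libraries, a log2 fold change of 0.70 ± 0.12 (SE, edgeR adjusted p = 0.00436). Its relative Mknk2 had -0.04 ± 0.09. Pabpc1, the main poly(A)-binding protein, rose with 0.49 ± 0.13 and Pdcd4, an inhibitor of eIF4A, with 0.47 ± 0.14. The fourth was Cyfip1, a partner of eIF4E, with 0.32 ± 0.09, named after its value was seen, whose call was lost under 6 alternatives (edgeR adjusted p up to 0.130). Pabpc1 lost its call with total counts only and without LPS 2 or any single Vehicle library, and Pdcd4 under 9 alternatives, with edgeR adjusted p up to 0.115 and 0.150. Among 7 kinases upstream of the MNK kinases, 2 rose, with and without LPS 3, namely Map2k6, which activates p38, with 1.43 ± 0.16 and Mapk3, an ERK kinase, with 0.58 ± 0.11.

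The mTORC1 list, which controls 4E-BP phosphorylation and TOP messengers, changed in both directions. With all libraries 3 of 23 tested genes were higher and 6 lower, where 12.7% of all tested genes rose and 10.9% fell. Without LPS 3, 4 were higher and 6 lower. Deptor, an inhibitory subunit of the complex, had 15.7, 14.9 and 19.9 CPM in LPS libraries, against 39.8, 40.6 and 38.9 CPM in Vehicle libraries, a log2 fold change of -1.24 ± 0.14 (SE, edgeR adjusted p = 0.000465). Ddit4 and Sesn2, which restrain mTORC1 under stress, rose 2.04-fold and 1.96-fold. The other 5 falls, named after their values were seen, were those of the core subunit gene Mlst8 (-0.65 ± 0.13), the activator gene Rheb (-0.50 ± 0.13), the S6 kinase gene Rps6kb1 (-0.74 ± 0.14), Sesn1 (-0.64 ± 0.12) and Lamtor5 (-0.43 ± 0.13), and the third rise was that of Castor1 (0.72 ± 0.17). The calls of Rheb, Lamtor5 and Castor1 were lost under 3, 5 and 4 alternatives. The kinase gene Mtor itself had 0.02 ± 0.09 and its partner Rptor -0.10 ± 0.09, and neither passed.

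Among elongation factors, Eef1a1 and Eef2 rose and 5 genes did not pass, where 12.7% of all tested genes and 18.3% of well expressed ones rose. Eef1a1 (ENSMUSG00000037742), which encodes the carrier of aminoacyl-tRNA, had 10048, 10259 and 9822 CPM in LPS libraries, against 8031, 7881 and 8772 CPM in Vehicle libraries. Eef2 (ENSMUSG00000034994), the gene for the translocation factor, had 3970, 4656 and 3711 CPM in LPS libraries, against 3226, 2931 and 3034 CPM in Vehicle libraries. Neither gene's groups overlapped. The log2 fold changes were 0.29 ± 0.08 for Eef1a1 (edgeR adjusted p = 0.0325) and 0.42 ± 0.10 for Eef2 (edgeR adjusted p = 0.0184). Eef1a1 lost its call with total counts only, under the replicate block and without LPS 1, LPS 2, Vehicle 1 or Vehicle 2, with adjusted p up to 0.148. Eef2 lost it without Vehicle 2 or Vehicle 3, with adjusted p up to 0.0848. Per kilobase, Eef1a1 was the most abundant of the 43, with 5598 CPM per kb in LPS libraries and 4586 CPM per kb in Vehicle libraries. Eef1a1 has many processed copies in the genome, so its counts are uncertain.

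The subunits of the exchange factor that recharges eEF1A did not pass edgeR's test with all libraries. Eef1b2 had 663, 760 and 420 CPM in LPS libraries, against 449, 464 and 413 CPM in Vehicle libraries. LPS 1 and LPS 2 were above all Vehicle libraries, and LPS 3 was inside their range. Without LPS 3 its log2 fold change was 0.68 ± 0.08 (edgeR adjusted p = 0.000901), against 0.48 ± 0.20 with it (edgeR adjusted p = 0.142). Eef1g, another subunit, had 0.27 ± 0.09 with all libraries (edgeR adjusted p = 0.0523) and 0.31 ± 0.07 without LPS 3 (edgeR adjusted p = 0.0129). With all libraries Eef1g passed by DESeq2, by limma voom and without the filter (adjusted p = 0.0334, 0.0436 and 0.0457). Eef1d, a further subunit, and Eif5a, the hypusine-carrying factor, had 0.03 ± 0.10 and -0.02 ± 0.08, and Eef2k, the kinase that inhibits eEF2, had 0.14 ± 0.11.

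Ribosomal protein genes, the largest TOP class, were added for context after the values were seen. Their summed level was 58861, 60424 and 42904 CPM in LPS 1, 2 and 3, against 44745, 44149 and 43083 CPM in Vehicle 1, 2 and 3. LPS 3 thus lay under every Vehicle library while LPS 1 and LPS 2 lay above them, a pattern that Eef1b2 shared in part and Eef1a1 and Eef2 did not. Of 80 tested ribosomal protein genes 11 rose and 0 fell, where 12.7% of all tested genes and 18.3% of well expressed ones rose, and 75 had a log2 fold change above 0, with a median of 0.28. The elongation group summed to 17627, 19046 and 16962 CPM in LPS libraries, against 14638, 14202 and 15124 CPM in Vehicle libraries, without overlap. Of 16 other elongation, hypusine and termination factors tested, 2 rose and 3 fell without LPS 3. With all libraries 1 rose, the ribosome-rescue GTPase gene Gtpbp2 with 1.92 ± 0.14, and 2 fell, among them the release factor gene Etf1 with -0.29 ± 0.09. Over all tested genes 12.7% rose and 10.9% fell. Etf1 lost its call under 6 alternatives, with edgeR adjusted p up to 0.163.

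**Figure D4:**
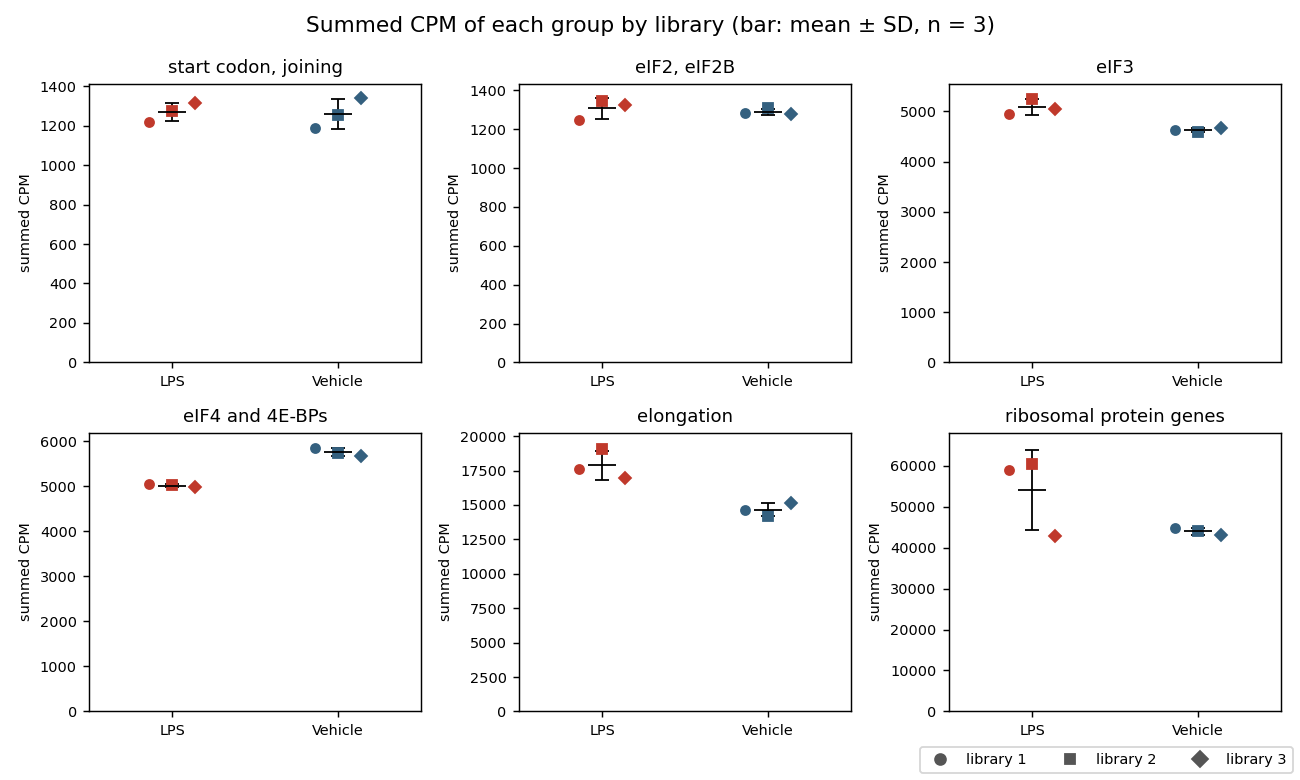
Summed CPM of the 5 groups of factors and of cytosolic ribosomal protein genes, in each LPS library (red, left) and each Vehicle library (blue, right), with mean and SD of 3 libraries. The eIF4 sum is lower and the eIF3 and elongation sums are higher in every LPS library, the other 2 groups of factors overlap, and the ribosomal protein sum of LPS 3 (42904) lies apart from those of LPS 1 and LPS 2.

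The 5 groups can be set side by side by their medians. The median log2 fold change was 0.27 for elongation factors, 0.12 for eIF3, 0.11 for eIF2 and eIF2B, 0.00 for the start codon and joining factors and -0.18 for the eIF4 group, against -0.02 for all tested genes. No test was made between groups, since their members are not replicates. With total counts only the median of all tested genes was -0.10, and the eIF4 group stayed lowest at -0.26. In summed CPM, eIF3 held 5084 ± 158 CPM in LPS libraries and 4630 ± 42.4 CPM in Vehicle libraries (SD, n = 3 each), without overlap, while eIF2 and eIF2B held 1246, 1347 and 1327 CPM in LPS libraries and 1282, 1307 and 1277 CPM in Vehicle libraries, with overlap.

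The fold changes of the factors varied with transcript length. Across the 43 genes the Spearman correlation between the length of the longest annotated transcript and the log2 fold change was -0.61, against -0.077 over 5864 well expressed genes. Of 22 factors with a length of at most 2726 bases, 6 rose and 0 fell, and their median was 0.28 on the log2 scale. Of 1918 well expressed genes up to that length, 374 rose and 277 fell, with a median of 0.06. Of the 21 longer factors, 2 rose and 3 fell, with a median of -0.08. Of 3946 longer well expressed genes, 698 rose and 662 fell, with a median of -0.003. The factors share libraries and their group structure, so this is a description. The 5 longest factors were Eif4g3, Eif4g2, Eif5b, Eef2k and Eif4ebp2, with 0.11, -0.42, -0.13, 0.14 and -0.44. LPS 3, whose deviation went with length over all genes, had the lowest LPS value in 26 of the 43 factors.

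**Figure D5:**
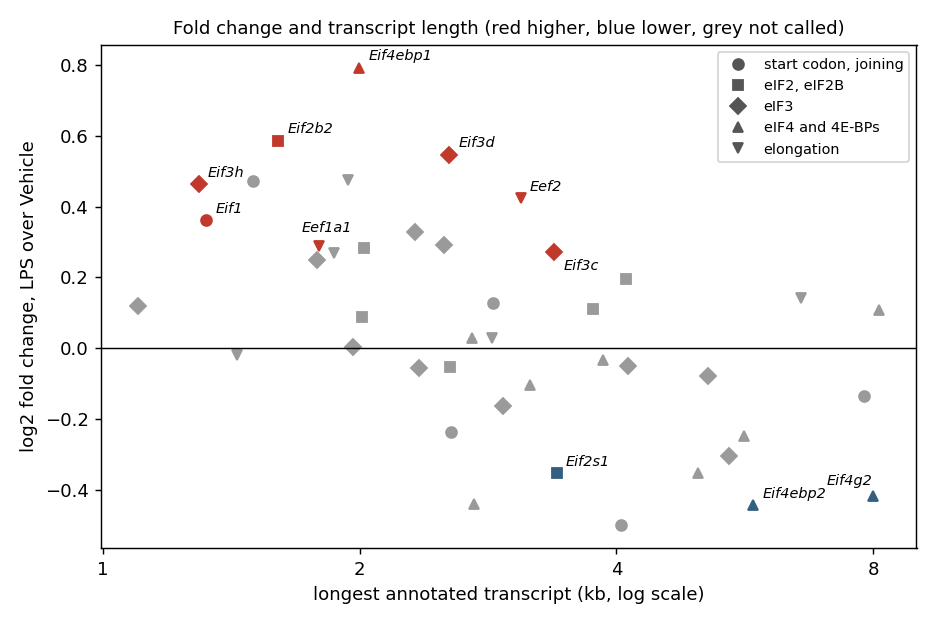
Log2 fold change of LPS over Vehicle against the length of the longest annotated transcript (log scale) for the 43 factors, with the group as the symbol. The 3 genes that fell (blue) are over 3 kb, and 6 of the 8 that rose (red) are at or under 2726 bases.

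The E-box CACGTG, a binding site of Myc and other factors, was looked for because Myc is known to drive several of these genes. Myc averaged 6.53 ± 1.43 CPM in LPS libraries and 1.47 ± 0.25 CPM in Vehicle libraries (SD, n = 3 each). The motif, which reads the same on both strands, was in 12 of the 42 windows of the factors from 250 bases before to 50 after the start (28.6%, 10 genes), against 7.15% of all windows and 11.3% of those of well expressed genes. Some windows overlap, such as those of Eif5a. Of the 6 matched genes that rose 1 held it, of the 2 that fell 0 did, and of the 25 not called 9 did. Of these windows, 3 are shown over 40 bases, with the motif in capitals, for a gene that rose and 2 of the eIF4 group that did not pass.
Eef2 (chr10:81176571-81176610, plus strand): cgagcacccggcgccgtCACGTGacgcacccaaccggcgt
Eif4e (chr3:138527023-138527062, plus strand): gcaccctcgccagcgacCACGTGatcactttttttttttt
Eif4g1 (chr16:20672656-20672695, plus strand): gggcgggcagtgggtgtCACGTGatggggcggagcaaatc

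Markers of other cell types were low. The 6 fibroblast genes summed to at most 0.78 CPM and the 7 astrocyte genes to at most 8.60 CPM in any library. The 6 oligodendrocyte genes summed to at most 7.78 CPM and the 5 endothelial genes to at most 4.02 CPM. Single genes reached 5.73 CPM (Slc1a2 in Vehicle 2), above the 2.64 CPM that bounded Tmem119, P2ry12 and Cx3cr1. The 7 neuronal genes summed to 1.90, 13.4 and 8.45 CPM in LPS libraries, against 5.37, 12.7 and 11.7 CPM in Vehicle libraries, and LPS 1 was lowest. In cultures of 1 line, fewer cells of a kind and less RNA per cell cannot be told apart.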

How the data were processed

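Poly(A)-selected RNA was sequenced from 3 LPS and 3 Vehicle libraries of BV2 cells, prepared with a kit not stated to mark the strand. Expected counts per gene were estimated and deposited by the authors, and whether a factor had been applied to them is not settled. The tools named in the submitters' processing notes, without role or order, are StringTie 1.3.1, HISAT2, DESeq2 and Bowtie2 2.2.8. Build and annotation: not given in the sources used here. Values were whole, so rounding changed nothing, but small values clustered at multiples of 3.72 to 3.77, depending on the library, so a count is not a read. Totals ran from 45969690 to 59023474 per library. All sample columns were mapped by name.

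Symbols and transcript lengths came from GENCODE M21 by Ensembl identifier, and 55141 of 55401 identifiers had a symbol. Genes were kept by filterByExpr (minimum count 10, total 15), scaled by TMM and tested with edgeR 4.0.16 (quasi-likelihood F-test, two-sided, robust, legacy=FALSE) in R 4.3.3, with Benjamini-Hochberg adjustment over 16371 genes and a threshold of 0.05. Standard errors are the size of the log2 fold change over the square root of F. Replicate numbers were not used to pair the libraries in the main test, and whether they mark pairs is not settled. Members, lists and tests were chosen with earlier results of these data known. All called factors, and Eif4e, were named by a rule. Other factors given by library were picked after their values were seen. Lists had no set test, and 1 gene of a pathway list is not reported here. The procedure was checked on simulated data. Alternatives were other scalings, filters and tests (DESeq2 1.42.0, limma 3.58.1), a replicate block, division by the spacing and leaving out each library.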

Additional observations from a re-analysis of the deposited data

How the results depend on the processing

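No named factor that passed the test changed sign under any of the 16 alternatives, 5 of the 11 calls held under all of them, and 11 of the 32 factors not called passed under at least 1. With total counts only, 5 factors rose and 7 fell; in the start codon and joining group 0 rose and 1 fell, in eIF3 1 fell, in eIF4 4 fell and among elongation factors 1 rose. The median log2 fold changes were then -0.091 (start codon and joining), 0.022 (eIF2 and eIF2B), 0.030 (eIF3), -0.26 (eIF4) and -0.00 (-0.0016, all 43), and -0.10 (eIF2 kinases), -0.24 (other initiation factors), -0.080 (cap and poly(A)), 0.030 (other elongation), -0.079 (mTORC1) and -0.10 (MNK kinases) for the pathway lists. With upper quartile scaling, the stricter filter or DESeq2, 5 factors fell and 1 of the joining group did, as it did with division by the spacing; the eIF4 median was -0.21 with upper quartile scaling, and DESeq2 called 2 rises in the joining group. Limma voom gave a joining median of 0.080, and without a filter the other initiation factors had -0.21. The cause was not tested.

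Same-numbered libraries had correlations of their deviations between 0.045 and 0.073, each library correlating best with its own number. These values are small, and whether the numbers mark pairs is not settled. With the replicate block 7 factors rose and 4 fell, 2 rose and 1 fell in the joining group, 1 elongation factor rose, Eif6 and Eif5 passed (adjusted p = 0.0322 and 0.0153), and the joining median was 0.058.

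Leaving out 1 library at a time, called genes ran from 2344 to 4535 over all genes (1291 to 2450 higher, 1053 to 2085 lower). Among the factors, rises ran from 4 to 13 and falls from 1 to 6; by group, joining 0 to 2 and 0 to 1, eIF2 falls 0 to 1, eIF3 rises 2 to 5 and falls 0 to 1, eIF4 falls 1 to 3, and elongation rises 0 to 4. In the pathway lists, rises and falls ran from 1 to 4 and 0 to 3 (cap and poly(A)), falls from 1 to 4 (other initiation factors) and 0 to 3 (other elongation), and mTORC1 from 2 to 4 and 4 to 7. Medians ran from -0.20 to 0.16 (joining), 0.077 to 0.22 (eIF3), -0.19 to -0.13 (eIF4), 0.031 to 0.11 (all 43), -0.18 to -0.12 (other initiation factors), -0.049 to 0.048 (mTORC1) and -0.082 to 0.068 (MNK kinases). Each factor averaged 37.0 CPM or more, and how far depth limits the precision was not tested.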
